A study of Mus musculus with 6 samples.

Results

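A set of 10 genes that mark the axon and cytoskeleton of retinal ganglion cells (RGCs) were followed in retina after saline or microbead injection: *Nefl*, *Nefm*, *Nefh*, *Tubb3*, *Stmn2*, *Gap43*, *Sncg*, *Thy1*, *Rbpms* and *Slc17a6*. They were chosen by name for what they encode, with earlier results of these data known. They are 10 of the 31169 genes in the deposited count table. All 10 passed the filter on low counts that left 17707 genes for testing, and the smallest count behind any value was 322 reads, of *Rbpms* in saline replicate 1, with a counting error of 5.57%. No member was called changed between the groups, and in every member the lowest of the 6 libraries was saline replicate 1. *Nefl* was low and *Sncg* high in microbead retina in proportion to the other members of the same library, without overlap between the groups. That measure was chosen after the levels were seen and was not tested, and on it 19.6% of 17192 genes did not overlap. Few tested genes share the members' low level in saline replicate 1, so that share is not a like-for-like background.

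RGCs are the output neurons of the retina, and their axons run across its inner surface to the optic nerve. Neurofilaments, assembled from light, medium and heavy chains together with alpha-internexin, fill these axons and set their calibre, while microtubules carry the transport along them. In glaucoma, RGC axons fail before the cell bodies are lost, and transcripts for axonal proteins are made in the cell bodies, which lie in the retina.

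Both groups were C57BL/6 mice, 2 months old at collection, that had received 1 µL of fluid into the anterior chamber at 1 month of age. The microbead group received beads of 15 µm diameter, which raise intraocular pressure (IOP) by obstructing outflow, and the control group received saline. Whole retina was collected 4 weeks after injection, and polyA-enriched libraries were sequenced from 3 retinas per group. The sample records give no deletion, transgene or other agent, and do not say how the animals relate to each other, so that p-values measure the spread between these retinas only. The text of the study gives another injection volume, and a caption gives more retinas per group than are analysed here.

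Saline libraries held 36085737 to 46481382 counts and microbead libraries 13574949 to 19834366, and mitochondrial genes took 3.19% to 3.57% of saline and 8.90% to 10.7% of microbead counts; the part of depth or of this share in the results was not tested. The library identifiers in the sample records begin differently in the saline and the microbead group, and what this marks is not given, so a difference that goes with it and that of the injection cannot be told apart. The tissue carried the markers of retina: the 12 rod genes summed to 63200 to 95180 counts per 1000000 (CPM, on TMM-scaled library sizes). Across all tested genes, 12.8% were called by edgeR (adjusted p under 0.05), and this share rested on single libraries. The count of called genes was 2261 with all libraries, 293 without saline replicate 2, 1480 without saline replicate 3, 748, 768 and 46 without microbead replicates 1, 2 and 3, and 2621 without saline replicate 1.

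*Nefh*, the neurofilament heavy chain gene, carries a repeated tail, in which the unit CCAGCTGAG (forward strand of the transcript, in frame) occurs 21 times in the coding sequence. A stretch from coding base 1969 to 2118, counted from the start codon in the GENCODE vM21 annotation of GRCm38, is shown because reads there can align at several places of the same transcript, with the 7 copies of the unit in capitals.
Nefh tail: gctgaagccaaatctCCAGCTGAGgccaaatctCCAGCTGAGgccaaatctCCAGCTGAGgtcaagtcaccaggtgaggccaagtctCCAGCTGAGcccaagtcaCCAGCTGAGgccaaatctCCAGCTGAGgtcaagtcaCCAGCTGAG
Of the 100-base stretches of the *Nefh* transcript, 1.13% recur within it and 0% occur in a transcript of another gene. *Nefl* (chr14:68083863-68089095, plus strand) and *Nefm* (chr14:68082590-68124846, minus strand) overlap on opposite strands in that annotation. They share 1108 exonic bases, the first 1108 of the 3380 bases of the *Nefl* transcript, which is 32.8% of the exonic bases of *Nefl* and 19.2% of those of *Nefm*. The library kit kept strand, but the sources used here do not say whether counting did, and without it reads from these bases cannot be told apart. The counts of both genes, and all ratios formed with them, are uncertain to that extent.

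*Nefl*, the light chain and the core on which neurofilaments assemble, was measured at 129, 348 and 432 CPM in saline retina and at 264, 177 and 222 CPM in microbead retina. Saline replicate 1 was the lowest and the other 2 saline libraries the highest of the 6, so the groups overlapped. Mean levels were 303 ± 156 in saline and 221 ± 43.9 CPM in microbead retina (SD, n = 3), and the log2 fold change (microbead minus saline) was -0.46 with a standard error of 0.37 (adjusted p = 0.439, edgeR's quasi-likelihood test with Benjamini-Hochberg adjustment). Without saline replicate 1 the log2 fold change was -0.82 ± 0.23 (SE) with an adjusted p of 0.0393 from edgeR, and *Nefl* was then called lower, whereas without saline replicate 3 it was -0.11 with an adjusted p of 0.866.

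*Nefm*, the medium chain, was at 39.9, 145 and 187 CPM in saline retina and at 126, 104 and 136 CPM in microbead retina. As for *Nefl*, the microbead libraries lay between saline replicate 1 and the other 2 saline libraries. Its log2 fold change was -0.02 ± 0.44 (SE, adjusted p = 0.980 from edgeR), which became -0.45 if saline replicate 1 was left out and 0.40 if saline replicate 3 was, neither of them called. *Nefh* (chr11:4938754-4948064, minus strand), the heavy chain with the long phosphorylated tail, was at 42.2, 103 and 127 CPM in saline and 130, 77.6 and 104 CPM in microbead retina. Microbead replicate 1 and saline replicate 3 were its highest libraries, the groups overlapped, and the log2 fold change was 0.20 ± 0.36 (SE, adjusted p = 0.748 from edgeR), or -0.15 without saline replicate 1.

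**Figure D1:**
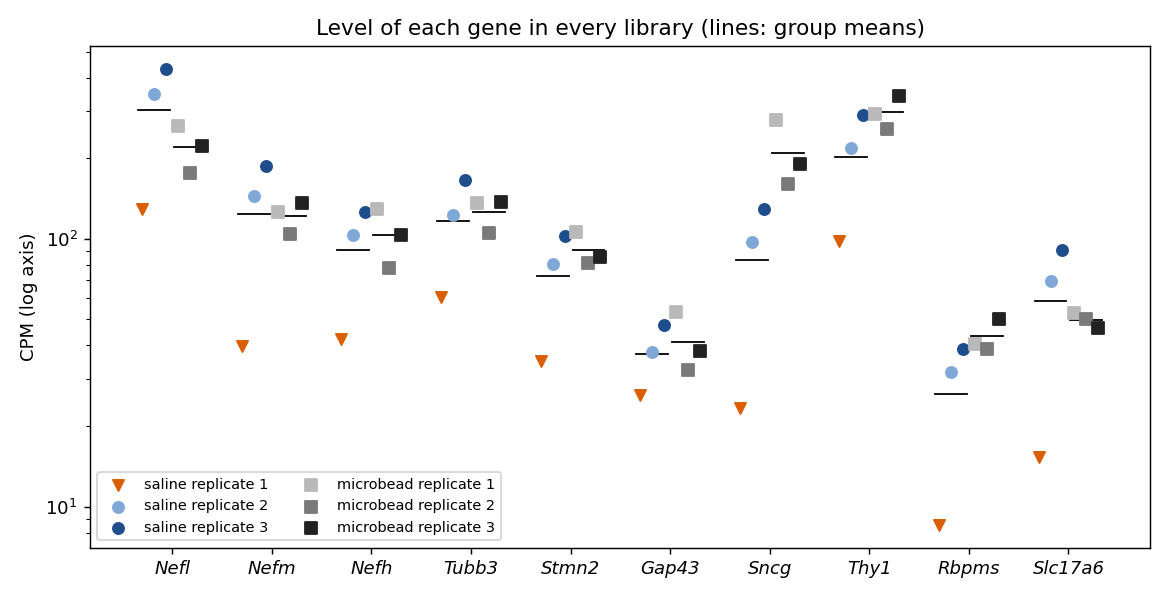
CPM (log axis) of each of the 10 genes in every library, with triangles for saline replicate 1, circles for the other saline libraries, squares for microbead libraries and lines for the group means (n = 3). Saline replicate 1 is the lowest point for 10 of 10 genes, and *Sncg* is the gene whose groups do not overlap.

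Because the ratio of counts within a library does not depend on how libraries are scaled, the chains were also compared with each other. *Nefl* held 61.1%, 58.4% and 58.0% of the reads of the 3 neurofilament genes in saline retina and 50.9%, 49.2% and 48.1% in microbead retina. The groups did not overlap, and saline replicate 1, the lowest library for each chain, had the highest share. The means were 59.2% ± 1.69 (SD, n = 3) and 49.4% ± 1.41 (SD, n = 3; exact permutation p = 0.1, two-sided, which is as small as 3 against 3 libraries can give, and 0.167 after Benjamini-Hochberg adjustment over 10 such tests). The share of *Nefh* was 18.1% ± 1.65 in saline and 23.04% ± 1.72 in microbead retina, again without overlap (SD, n = 3, exact permutation p = 0.1, adjusted 0.167). That of *Nefm* was 22.8% ± 3.34 and 27.6% ± 2.95 and overlapped (SD, n = 3, exact permutation p = 0.3, adjusted 0.375).

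Set against *Nefh* alone, *Nefl* had 3.06, 3.38 and 3.41 reads per *Nefh* read in saline libraries and 2.04, 2.28 and 2.13 in microbead libraries. The lowest saline ratio was above the highest microbead ratio, and the log2 ratio differed by -0.61 (1.71 ± 0.09 against 1.10 ± 0.08, SD, n = 3, exact permutation p = 0.1, adjusted 0.167). Of 17191 genes set against *Nefh* in the same way, 12.6% were lower in microbead retina without overlap. Few tested genes share the low level of *Nefh* in saline replicate 1, so that share is not a like-for-like background. Against *Nefm*, *Nefl* had 3.23, 2.41 and 2.31 reads in saline and 2.10, 1.69 and 1.63 in microbead libraries, a log2 difference of -0.54 (exact permutation p = 0.1, n = 3, adjusted 0.167). The log2 ratio of *Nefm* to *Nefh* overlapped and differed by -0.07 (exact permutation p = 0.6, n = 3, adjusted 0.667), with the sign turned without saline replicate 2 (0.02), saline replicate 3 (0.05) or microbead replicate 1 (0.08).

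Per length (RPKM, reads scaled for exon length and library size), *Nefl* made up 67.4% ± 1.05 of the neurofilament total in saline and 58.1% ± 1.04 in microbead retina (SD, n = 3, exact permutation p = 0.1, adjusted 0.167). The summed level of the 3 chains was 211, 596 and 745 CPM in saline and 519, 358 and 461 CPM in microbead retina, where saline replicate 1 was again lowest and the groups overlapped (exact permutation p = 0.8, n = 3, adjusted 0.800). The length used for *Nefm* was the union of its exons, 5782 bases, whereas its transcript with the longest coding sequence has 3334. The shares of *Nefl* and *Nefh* thus did not overlap between the groups, while the share of *Nefm* and the sum of the chains did. With n = 3 in each group no permutation p could fall under 0.1.

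**Figure D2:**
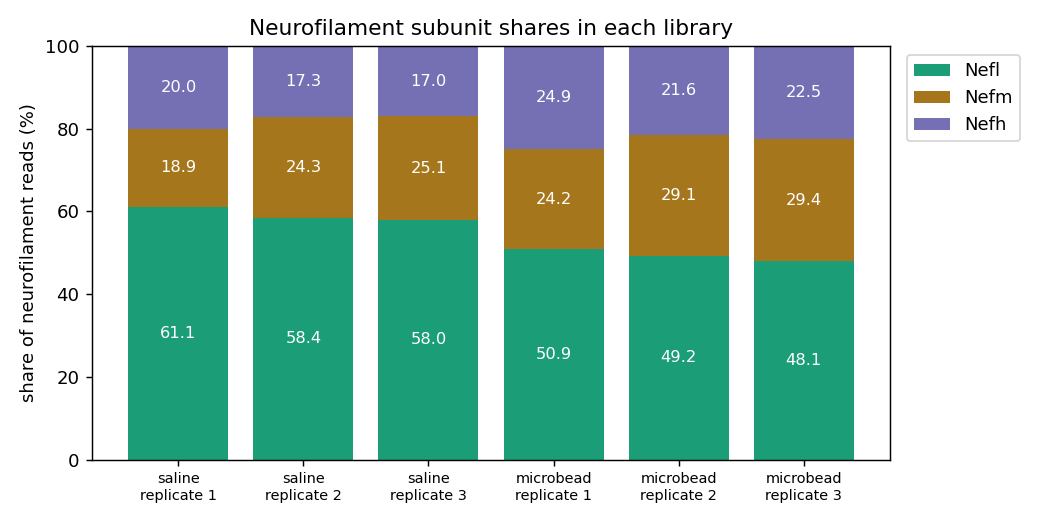
Share (%) of each subunit in the reads of *Nefl*, *Nefm* and *Nefh* in each library, 1 stacked bar per library. The *Nefl* share is 58.0% to 61.1% in saline and 48.1% to 50.9% in microbead libraries.

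Of the partner chains of the neurofilament, *Ina*, which encodes alpha-internexin, had 133 ± 48.9 CPM in saline and 129 ± 21.1 CPM in microbead retina (SD, n = 3; log2 fold change -0.05, adjusted p = 0.932 from edgeR). *Prph*, which encodes peripherin, had 5.98 ± 3.26 and 3.22 ± 1.35 CPM, with no overlap (log2 fold change -0.89, adjusted p = 0.224 from edgeR). The lowest saline library (4.065 CPM) was barely above the highest microbead library (4.028 CPM). Unlike for the members, saline replicate 1 was the highest library for *Prph* (9.75 CPM). Without it the log2 fold change was -0.35 (adjusted p = 0.613 from edgeR). Neither *Ina* nor *Prph* was called.

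*Tubb3* (chr8:123411424-123422015, plus strand) encodes the neuronal beta-tubulin by which RGCs are commonly labelled. It was at 60.5, 123 and 165 CPM in saline and 137, 105 and 138 CPM in microbead retina, with the microbead libraries inside the saline range. Its log2 fold change was 0.12 ± 0.32 (SE, adjusted p = 0.829 from edgeR), or -0.19 without saline replicate 1. *Stmn2* (chr3:8509360-8561606, plus strand), a microtubule-binding protein of growing and regenerating axons, was at 34.9, 80.6 and 103 CPM in saline and 106, 81.3 and 85.7 CPM in microbead retina. The range of both groups ended at nearly the same level, and the log2 fold change was 0.32 ± 0.33 (SE, adjusted p = 0.543 from edgeR), or -0.01 without saline replicate 1.

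*Gap43* (chr16:42248442-42340651, minus strand), the growth-cone protein re-expressed by injured RGCs, was at 26.2, 37.9 and 47.7 CPM in saline and 53.4, 32.4 and 38.2 CPM in microbead retina. It was the member least set apart in saline replicate 1, at 61.1% of the mean of the other 2 saline libraries, and microbead replicate 1 was its highest library. Its log2 fold change was 0.15 ± 0.26 (SE, adjusted p = 0.733 from edgeR), and -0.08 without microbead replicate 1 or -0.05 without saline replicate 1.

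*Sncg* (chr14:34370274-34374789, minus strand), gamma-synuclein, an axonal protein that marks nearly all RGCs, was at 23.3, 97.0 and 130 CPM in saline and 279, 161 and 191 CPM in microbead retina. Every microbead library was above every saline library, as for 18.8% of all tested genes, and no other member showed this. Mean levels were 83.4 ± 54.5 in saline and 210.0 ± 61.5 CPM in microbead retina (SD, n = 3), with a log2 fold change of 1.33 ± 0.50 (SE), an unadjusted p of 0.0244 and an adjusted p of 0.103 from edgeR. Without saline replicate 1 the log2 fold change was 0.89 ± 0.27 (SE, adjusted p = 0.0523 from edgeR). Over all libraries left out in turn it ran from 0.89 to 1.80, with adjusted p from 0.0514 to 0.269. It was called only when genes with low counts were kept in the fit (log2 fold change 1.27, adjusted p = 0.000393 from edgeR), where 4.85% of 31169 genes were called higher and the estimate of the spread leaned far more on the other genes (77.1 prior degrees of freedom against 5.59).

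Its relative *Sncb*, beta-synuclein, is expressed more widely. It had 684 ± 86.4 CPM in saline and 963 ± 81.2 CPM in microbead retina, without overlap (SD, n = 3; log2 fold change 0.49, adjusted p = 0.0925 from edgeR) and without a call.

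*Thy1* (chr9:44043384-44048579, plus strand), a surface glycoprotein long used to count and label RGCs, was at 97.8, 218 and 290 CPM in saline and 293, 257 and 343 CPM in microbead retina. Saline replicate 3 reached the microbead range, so the groups overlapped. Its log2 fold change was 0.56 ± 0.34 (SE, adjusted p = 0.285 from edgeR), or 0.23 without saline replicate 1. *Rbpms* (chr8:33782643-33929863, minus strand), an RNA-binding protein found in nearly all RGCs and few other retinal cells, was at 8.55, 31.8 and 38.9 CPM in saline and 40.6, 38.9 and 50.2 CPM in microbead retina. Only saline replicate 3, level with the lowest microbead library, kept the groups from separating, and the log2 fold change was 0.71 ± 0.44 (SE, adjusted p = 0.298 from edgeR), or 0.29 without saline replicate 1.

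*Slc17a6* (chr7:51622006-51671119, plus strand) encodes VGLUT2, the transporter that loads glutamate into the synaptic vesicles of RGCs. It was at 15.4, 69.4 and 91.0 CPM in saline and 52.8, 50.3 and 46.6 CPM in microbead retina. The microbead libraries lay close together, between saline replicate 1 and the other 2 saline libraries. The log2 fold change was -0.23 ± 0.49 (SE, adjusted p = 0.783 from edgeR), 0.23 without saline replicate 3, and -0.69 ± 0.20 (SE, adjusted p = 0.0460 from edgeR) without saline replicate 1, when it was called lower. Its relatives *Slc17a7*, the transporter of photoreceptors and bipolar cells, and *Slc17a8*, that of some amacrine cells, had log2 fold changes of -0.42 (adjusted p = 0.154) and -0.63 (adjusted p = 0.209) from edgeR; without saline replicate 1 *Slc17a8* was called lower (-0.90, adjusted p = 0.0462).

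Over the 10 members, edgeR called 0, against 12.8% of all tested genes, and DESeq2 and limma-voom called 0 as well. An unadjusted p under 0.05 was reached by 1 member, *Sncg*, with edgeR, by 1 with limma-voom and by 0 with DESeq2. The groups did not overlap for 1 member, against 37.8% of all tested genes. The median log2 fold change of the members was 0.17, with 7 above and 3 below zero, and that of all tested genes was -0.03 with quartiles at -0.43 and 0.43. Without saline replicate 1, edgeR called 2 members lower, *Nefl* and *Slc17a6*, against 7.3% of 17321 genes, called none higher, and the members' median turned to -0.10. In whole retina, fewer RGCs and less RNA per RGC cannot be told apart.

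**Figure D3:**
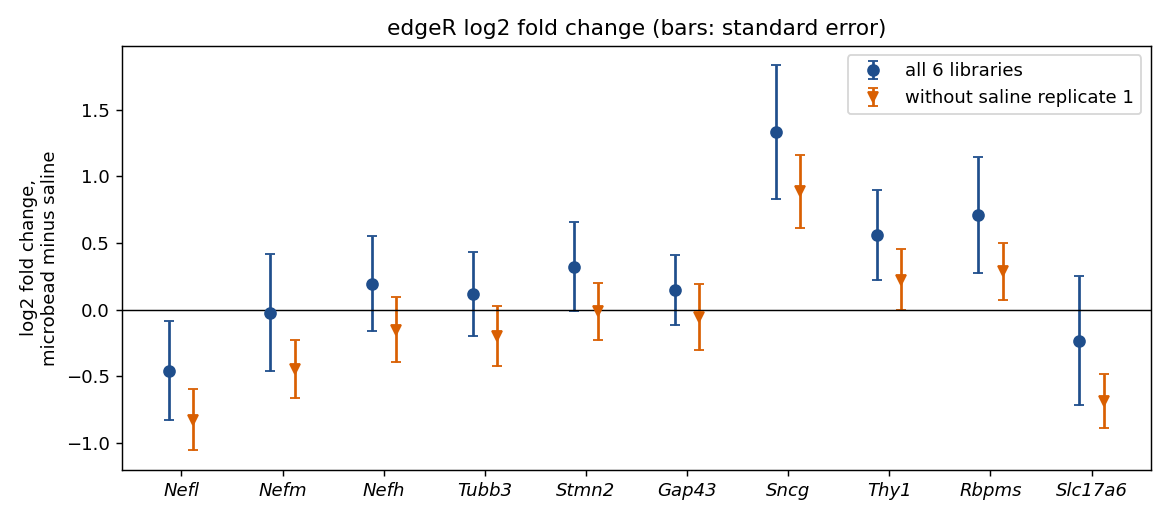
Log2 fold change (microbead minus saline) of each gene from edgeR with its standard error, from all 6 libraries (circles) and without saline replicate 1 (triangles). Every value is lower without that library, and *Sncg* has the highest value in both fits.

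Saline replicate 1 was the lowest library for 10 of 10 members, against 12.2% of all tested genes. Its level as a percent of the mean of the other 2 saline libraries had a median of 34.9% over the members, from 19.1% for *Slc17a6* to 61.1% for *Gap43*, against a median of 103% over all tested genes. For 9 of the 10 members this level was under 50%, as for 4.74% of tested genes. Between the lowest and highest of the 3 saline libraries, the members spread from 1.82-fold for *Gap43* to 5.92-fold for *Slc17a6*, and saline replicate 3 was only 1.22-fold to 1.34-fold above saline replicate 2. The 3 microbead libraries spread from 1.13-fold for *Slc17a6* to 1.74-fold for *Sncg*, with *Gap43* at 1.65-fold, close to its saline spread. The standard errors of the members ran from 0.26 to 0.50 with all libraries and from 0.20 to 0.27 without saline replicate 1.

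Other genes of RGCs had the same library lowest. Of 16 further RGC genes, 15 were lowest in saline replicate 1, the exception being *Kcng4*, a potassium channel gene of alpha RGCs. Their summed level was 422, 743 and 925 CPM in saline and 834, 705 and 790 CPM in microbead retina. edgeR called 0 of 16, with a median log2 fold change of 0.31, or -0.12 without saline replicate 1. The smallest p-values among them were those of *Kcng4* (log2 fold change -0.47, adjusted p = 0.103 from edgeR), *Rbpms2*, the close relative of *Rbpms* (0.97, adjusted p = 0.141 from edgeR), and *Jam2*, an adhesion molecule of some RGC types (0.37, adjusted p = 0.142 from edgeR). The groups did not overlap for these 3 of the 16 genes, against 37.8% of all tested genes, and overlapped for the other 13.

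Genes of amacrine cells, the other neurons of the ganglion cell layer, were in part low in the same library. Of 12 amacrine genes, 8 were lowest in saline replicate 1, and their sum was 1208, 2033 and 2450 CPM in saline and 1518 to 1830 CPM in microbead retina. edgeR called 0 of 12 with all libraries. Without saline replicate 1 it called 3 lower: *Gad1* (log2 fold change -1.02, adjusted p = 0.0155 from edgeR) and *Gad2* (-0.72, 0.0444), which make GABA, and *Slc32a1* (-0.87, 0.0314), which loads it into vesicles. In that fit 7.3% of 17321 genes were called lower. The pigment epithelium list, from the tissue that adjoins the retina, summed to 8.02, 35.8 and 161 CPM in saline and 76.6 to 90.3 CPM in microbead retina, and 5 of its 6 genes were lowest in saline replicate 1. None of its 6 genes was at 0 in any library, and edgeR called 0 of them. The smallest p-values were those of *Pmel* (log2 fold change 0.94), *Ttr* (0.38) and *Tyr* (-0.37), with adjusted p of 0.282, 0.772 and 0.810 from edgeR.

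Of 12 rod, 8 endothelial and pericyte, and 6 tested oligodendrocyte genes, 0 were lowest in saline replicate 1, and of 10 Müller glia and astrocyte genes 4 were, against 12.2% of all tested genes. The rod list summed to 72420 to 95180 CPM in saline and 63200 to 77820 CPM in microbead retina. Of its 12 genes 1 was called lower, *Nrl*, the rod fate factor (log2 fold change -0.97, adjusted p = 0.0192 from edgeR), against 1118 of 17707 tested genes called lower. *Gnb1* (-0.58) and *Cnga1* (-0.62) were next by p and not called. The list median was -0.19, with *Gngt1* (0.66), *Gnat1* (0.37) and *Pde6g* (0.29) above zero and not called. The part of the amount of amacrine, pigment epithelium or rod tissue in the members' values was not tested.

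**Figure D4:**
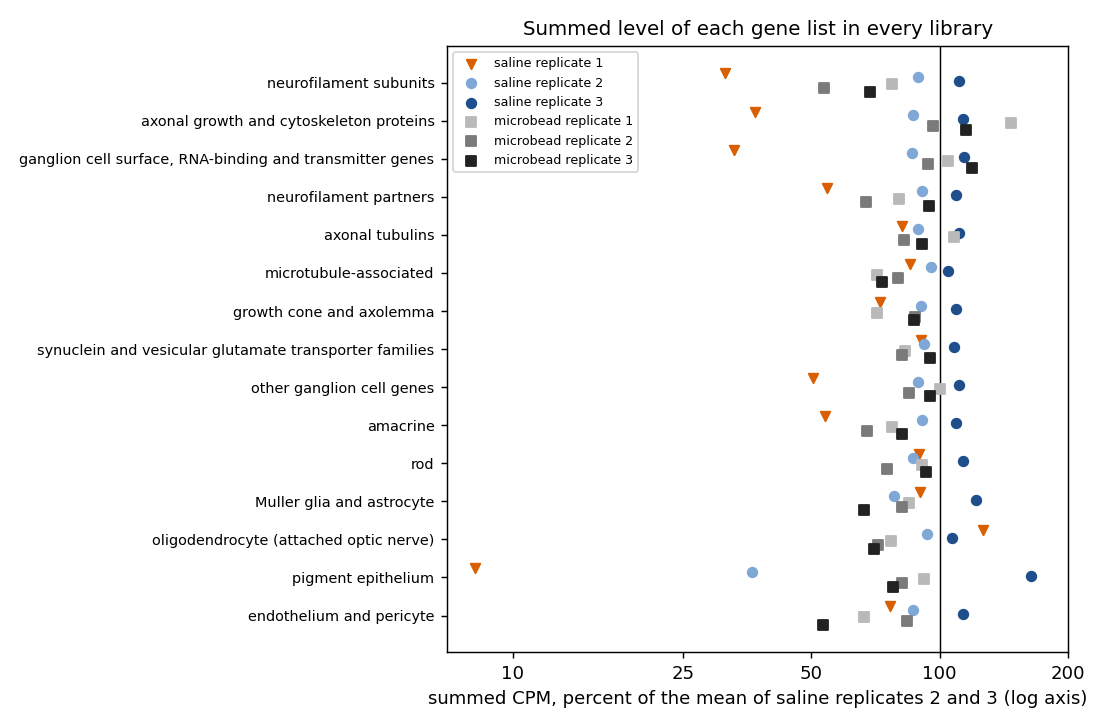
Summed CPM of each gene list in every library, in percent of the mean of saline replicates 2 and 3 (log axis), with triangles for saline replicate 1, circles for the other saline libraries and squares for microbead libraries. Saline replicate 1 stands far to the left for the member lists, the other ganglion cell genes, the amacrine and the pigment epithelium lists, and near the other libraries for the rod list.

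The optic nerve holds myelinating glia, so oligodendrocyte genes bear on how much nerve stayed attached. The 6 tested genes of that list, with 2 further genes under the filter, summed to 70.6 to 95.9 CPM in saline and 53.3 to 58.2 CPM in microbead retina, and none of the 6 was at 0 in any library. edgeR called 2 lower, *Cnp* (log2 fold change -1.19, adjusted p = 0.0190) and *Mbp* (-0.64, 0.0335), an enzyme and a structural protein of myelin. Saline replicate 1 had the highest sum, in contrast to its neurofilament sum, and the part of attached nerve was not tested. The Müller glia and astrocyte list had 2 of 10 called lower, *Sox9* (-1.46, adjusted p = 0.0373 from edgeR) and *Vim* (-0.79, 0.0438), with *Aqp4* at -0.46 (0.175). The median of that list was -0.28, with *Gfap* (0.31) and *Pax2* (0.39) above zero and not called. The endothelial and pericyte list had 2 of 8 called lower, *Cldn5* (-0.94, 0.0297) and *Pdgfrb* (-0.87, 0.0377), with *Cdh5* at -0.69 (0.144). Over all 17707 tested genes, 1118 were called lower, which is the share to set beside these 2 lists and the oligodendrocyte list.

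Summed over genes, more general parts of the axonal machinery, expressed by many retinal neurons, were not low in saline replicate 1 to the same degree. Its summed level, as a percent of the mean of the other 2 saline libraries, was 81.8% for 8 tubulins, 85.0% for 13 microtubule-associated proteins and 72.4% for 13 growth-cone and axolemma genes, against 31.5% for the neurofilament subunits. Gene by gene, 4 of 8, 7 of 13 and 5 of 13 were lowest in saline replicate 1, against 12.2% of all tested genes. In each of these 3 lists, against 1118 lower and 1143 higher of all 17707 tested genes, edgeR called 1 gene lower and 0 higher. They were *Tuba1b*, an alpha-tubulin (log2 fold change -0.92, adjusted p = 0.0227), *Dpysl3*, a collapsin response mediator (-0.74, 0.0278), and *Marcks*, an actin-binding membrane protein (-0.88, 0.0253). Of the 10 genes called in the lists outside the members, with edgeR 8 were still called without saline replicate 1 (all but *Dpysl3*, adjusted p = 0.0538, and *Vim*, 0.0786), 2 without saline replicate 2, 4 without saline replicate 3, and 2, 1 and 0 without microbead replicates 1, 2 and 3, with adjusted p of at most 0.163. Next by p, and not called, were the tubulins *Tubb4a* (0.69, adjusted p = 0.0790 from edgeR) and *Tubb2b* (-0.46, 0.245), the microtubule-associated *Map1b* (-0.50, 0.111) and *Dpysl2* (-0.70, 0.114), and the node-of-Ranvier genes *Nfasc* (0.74, 0.0631) and *Cntn1* (-0.80, 0.0903), the last of which was called without saline replicate 1 (-1.07, 0.0167).

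To compare the members with each other within a library, each log2 CPM was set against the mean of the 10 members in the same library, a measure chosen after the levels were seen. The geometric mean used was 35.9, 99.1 and 127 CPM in saline and 119, 89.2 and 108 CPM in microbead retina. On this scale *Nefl* stood at 1.84, 1.81 and 1.76 (log2) in saline and at 1.148, 0.98 and 1.04 in microbead libraries. The saline libraries lay close together, saline replicate 1 included, and the groups did not overlap, with a difference of -0.75. *Sncg* stood at -0.62, -0.03 and 0.03 in saline and 1.23, 0.85 and 0.82 in microbead libraries, a difference of 1.17 without overlap.

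*Rbpms* stood at -2.07, -1.64 and -1.71 in saline and -1.56, -1.20 and -1.11 in microbead libraries, a difference of 0.52 without overlap, though microbead replicate 1 was nearer to 2 saline libraries than to its own group. The other 7 members overlapped, with differences from -0.33 for *Slc17a6* to 0.24 for *Thy1*. Thus 3 of 10 members were without overlap, against 19.6% of the 17192 genes above 0 in every library that were set against the same mean. The members share the fall of that mean in saline replicate 1, and tested genes as a whole do not. Their median levels there were 34.9% and 103% of the other 2 saline libraries, so the 19.6% is not a like-for-like background. The 10 values of a library sum to zero by construction, so they show that members differed from each other and not which of them changed. No test was made of these values.

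**Figure D5:**
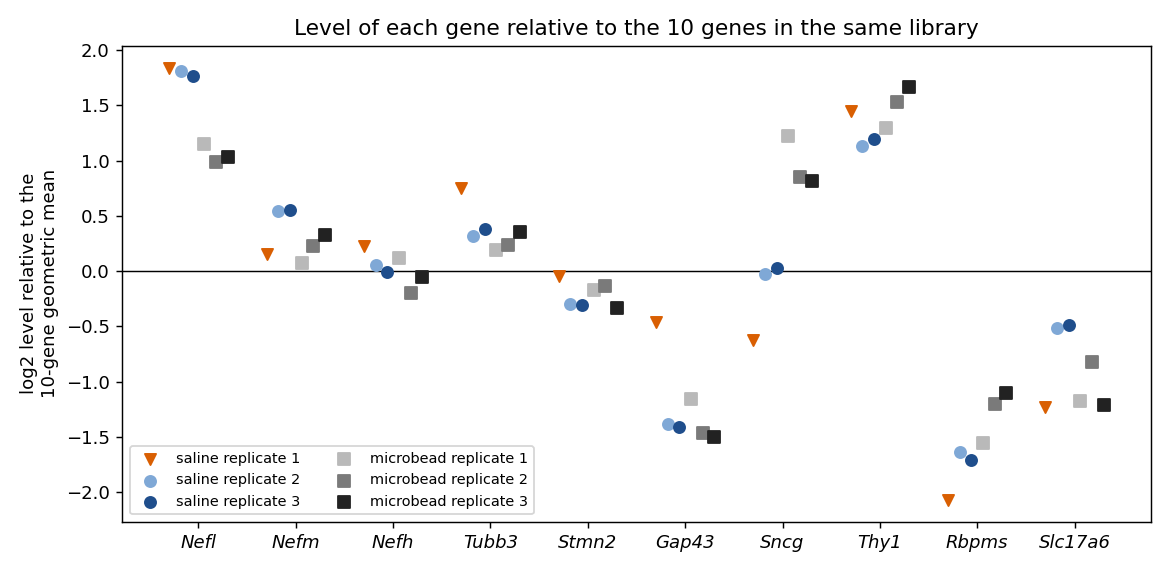
Log2 level of each gene less the mean of the 10 genes in the same library, with triangles for saline replicate 1, circles for the other saline libraries and squares for microbead libraries. *Nefl* is lower and *Sncg* and *Rbpms* higher in every microbead library than in any saline library, and the other 7 genes overlap.

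The members that lay furthest apart in this measure were *Nefl* and *Sncg*, and they were compared after their values were seen. There were 5.52, 3.59 and 3.33 *Nefl* reads per *Sncg* read in saline libraries and 0.948, 1.10 and 1.16 in microbead libraries. *Sncg* was also higher in proportion to *Rbpms*, with 2.73, 3.05 and 3.34 reads per *Rbpms* read in saline and 6.87, 4.13 and 3.80 in microbead libraries. Neither ratio overlapped between the groups. For *Nefl* and *Sncg* this followed from the choice of members, which already lay apart without overlap in opposite directions. The share of other gene pairs without overlap was not measured, and no test was made of these ratios.

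Per length, on the RPKM scale, the order of the members also differed between the groups. In saline retina *Sncg* (97.8 ± 64.0 RPKM) and *Nefl* (89.6 ± 46.3) came first, followed by *Thy1* (67.4) and *Tubb3* (62.3), and these neighbours did not differ beyond their spread (SD, n = 3). *Gap43* (24.5), *Nefh* (22.7) and *Nefm* (21.4) formed a middle range, and *Stmn2* (13.0), *Slc17a6* (10.9) and *Rbpms* (4.03) the lowest. The lengths used were unions of exons, which in some members far exceed the transcript with the longest coding sequence. *Rbpms* had 6556 against 1039 bases, *Stmn2* 5602 against 2073 and *Nefm* 5782 against 3334, so the order depends on the length used. In microbead retina *Sncg* stood first at 246 ± 72.2 RPKM, then *Thy1* (99.4 ± 14.3), *Tubb3* (67.7) and *Nefl* (65.3 ± 13.0), with the last 6 members in the same order as in saline retina.

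Likeness was measured over the 11836 tested genes whose mean reached 5 CPM. The genes whose log2 profile over the 6 libraries came nearest to that of *Nefl* were *Chrna6*, *Ahnak2* and *Mmp9*, at root mean square distances of 0.118, 0.119 and 0.121 (log2). *Chrna6*, a nicotinic receptor subunit of RGCs, was at 51.0, 128 and 169 CPM in saline and 106, 83.3 and 97.7 CPM in microbead retina, which is the *Nefl* pattern at a lower level. Nearest to *Sncg*, and less closely, were *Tac2* (0.259), *Rbpms2* (0.348) and *Eomes* (0.387), the last a transcription factor of the melanopsin RGCs. Nearest to *Rbpms* were *Srgap1* (0.136), *Rbpms2* (0.178) and *Cyp2s1* (0.195). These distances rank genes over the same 6 libraries in which saline replicate 1 is lowest for each of them, and were not tested.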

How the data were processed

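PolyA-enriched RNA of 3 saline and 3 microbead retinas was analysed, grouped by the sample records. The authors aligned paired-end reads with STAR 2.5.3a to GRCm38.p5 using the GENCODE vM12 gene models, assigned them to genes by featureCounts 1.15.2, and deposited counts without normalization. How reads with several alignments were counted, and whether by strand, is not given in the sources used here. The deposited table also holds the authors' DESeq2 1.14 comparison, namely a mean signal per gene, a log2 fold change, the linear fold change or ratio, p-values, adjusted p-values and a call, none of which was used. All columns of per-sample counts were used.

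After filterByExpr (minimum count 10, minimum total 15) and TMM scaling, groups were compared in R 4.3.3 with edgeR 4.0.16 (quasi-likelihood, two-sided) over all 17707 tested genes; p-values were adjusted by Benjamini-Hochberg and called under 0.05. The standard error is the size of the log2 fold change divided by the square root of the F statistic. RPKM used the union of exons in GENCODE vM21, where gene identifiers were those of the count table except for the version of *Rbpms*. Ratios within a library were compared by exact permutation. Only the edgeR, DESeq2 and limma-voom fits were run on simulated counts, which held no low library like saline replicate 1. The ratios, permutations, relative levels and likeness were not part of that simulation. Counting intervals cover counting error only. At the smallest library total, 3 counts are 0.217 CPM.

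The members and gene lists were chosen with earlier results of these data known. All 10 members are named, as are the 3 genes of each other list with the smallest p, the relatives of the neurofilament, synuclein and vesicular glutamate transporter genes, and the 3 genes nearest in profile to *Nefl*, *Sncg* and *Rbpms* (log2 of CPM plus 0.1, centred on the 6 libraries). Some genes and sequences that this rule names are not reported here. No library was a copy of another, since chi-square per degree of freedom was 22.0 or more for every pair within a group. Alternatives were RLE and upper-quartile scaling, DESeq2 1.42.0, limma-voom (limma 3.58.1), no filter, a minimum of 10 counts in each library, unscaled totals for ratios, the replicate number as a block, and each library left out in turn. Levels relative to the members and ratios outside the neurofilaments were added after seeing the data.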

Additional observations from a re-analysis of the deposited data

How the results depend on the processing

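Of 130 log2 fold changes of members under alternatives, 112 kept their direction and side of the threshold, 15 turned direction and 3 passed the threshold; none did both. The number of members called was 0 with all libraries, 1 without a filter on low counts (*Sncg*), and 0 to 2 with libraries left out in turn. The number of all genes called was 2261, 3720 without a filter, 3582 with DESeq2, 905 with the replicate block and 46 to 2621 with libraries left out. *Nefm* turned direction with upper-quartile scaling (0.0247), limma-voom (0.24) and the replicate block (0.21), and *Slc17a6* with limma-voom (0.12) and the replicate block (0.0730). With libraries left out, log2 fold changes ran from -0.82 to -0.11 for *Nefl*, -0.45 to 0.40 for *Nefm*, -0.69 to 0.23 for *Slc17a6*, -0.15 to 0.51 for *Nefh*, -0.19 to 0.46 for *Tubb3*, -0.0123 to 0.65 for *Stmn2* and -0.0839 to 0.37 for *Gap43*. The median of the members ran from -0.10 to 0.48, that of the other RGC genes from -0.12 to 0.64, and the log2 ratio of *Nefm* to *Nefh* from -0.27 to 0.0831. Apart from the libraries left out, the cause of these turns was not tested. Replicate numbers did not pair samples (correlations of same-numbered deviations -0.04, 0.14 and 0.01), and the replicate block changed no member's call. Without a filter the median log2 fold change of all genes was -0.23, against -0.03. At least 322 counts stand behind each value of a member, a counting error of at most 5.57%, and the part of the difference in depth between the groups was not tested.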
